A study of Mus musculus with 8 samples.

Results

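The signal recognition particle (SRP) and its receptor were followed across 4 left ventricle samples of Nppb knockout mice and 4 of wild-type mice. The group was defined by name, as 10 genes: Srp9, Srp14, Srp19, Srp54a, Srp54b, Srp54c, Srp68, Srp72, Srpr and Srprb. Of these, 9 were measured among 41128 genes in the deposited table, 7 of them under their symbol. Srp54a and Srp54c carry no symbol in the table and were found by gene ID through the GENCODE M21 annotation, and Srp54b was not analysed here. A further row bears the symbol Srprb, is named Gm20425 in GENCODE M21, and was 0 in every sample. The knockout animals carry a CRISPR deletion in exon 2 of Nppb, which encodes the precursor of brain natriuretic peptide, and the wild-type animals are described as their littermates. All 8 samples came from mice of the FVB strain, 8 to 12 weeks old. The number of founders of the knockout line was not stated. The protocol text also names Myh6-MerCreMer, nTnG and Sun1/sfGFP mice kept on FVB/N, and does not say whether the mice sampled here carried any of those alleles.

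SRP is a complex of a small RNA, called 7SL, and a set of proteins that meets ribosomes as a signal sequence or membrane segment leaves the exit tunnel. It slows translation and carries the ribosome to the SRP receptor on the endoplasmic reticulum (ER), where the growing chain passes to the Sec61 channel. Ion channels, receptors and secreted hormones of heart muscle, the natriuretic peptide precursors among them, carry such sequences.

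Total RNA from each sample was sequenced, and counts assigned to genes ranged from 20284865 to 34742840 per library. Values are normalized read counts, the counts of a gene divided by 1 size factor per library. Nppb measured 1.54 to 4.13 in knockouts, against 1840 to 4619 in wild type, so the libraries matched their labels (limma adjusted p = 4.63e-05). Summed markers of heart muscle came to 1047181 to 1190489 in knockouts and 1132265 to 1235699 in wild type, and the 3 atrial markers to at most 48.4 in any library. The summed markers of fibroblasts, endothelium, macrophages, adipocytes and red cells overlapped between the genotypes, and none of their tested genes passed (limma). In whole tissue, fewer cells of a type and less RNA per cell cannot be told apart.

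The SRP54 protein, a GTPase that grips the signal sequence, is encoded in mouse by 3 near-identical gene copies. They lie in a row on the forward strand of chromosome 12 in build mm10: Srp54a at 55080262 to 55115367, then Srp54b, then Srp54c at 55230168 to 55263836. In GENCODE M21 each coding sequence has 1512 bases before the stop codon. Srp54a and Srp54b are identical over it, and Srp54c differs from both at 6 positions. The stretches below hold 5 of those 6 positions and are shown because they hold nearly all the coding letters that tell Srp54c from the other copies. Capitals mark the bases at which the copies differ, 5′ to 3′ along the spliced coding sequence. Coding positions 925 to 985, counted from the A of the start codon and lying in exons 11 and 12, read as follows.
Srp54a: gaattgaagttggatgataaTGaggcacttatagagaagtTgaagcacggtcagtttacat
Srp54b: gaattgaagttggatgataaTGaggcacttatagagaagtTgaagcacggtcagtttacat
Srp54c: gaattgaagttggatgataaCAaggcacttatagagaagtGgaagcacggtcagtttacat
Coding positions 1187 to 1259, in exon 14, read as follows.
Srp54a: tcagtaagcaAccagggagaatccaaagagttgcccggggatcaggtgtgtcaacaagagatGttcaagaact
Srp54b: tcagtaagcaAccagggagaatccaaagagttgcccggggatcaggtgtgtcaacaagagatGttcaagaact
Srp54c: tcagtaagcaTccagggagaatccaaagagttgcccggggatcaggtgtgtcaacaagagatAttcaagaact
Outside the capitals the copies match letter for letter, and Srp54a and Srp54b match throughout. Of all 125-base windows of the longest coding Srp54c transcript, 87.3% also occur in a transcript of another gene, Srp54a or Srp54b. For Srp54a the share is 71.2%. A 125-base read falling in such a window fits more than 1 copy by itself, and the authors' way of counting such reads was not stated. Sequencing was paired-end, and the placing of a pair by its other read was not considered in these shares. The separate values of Srp54a and Srp54c are therefore uncertain, and their sum is given beside them. Reads from Srp54b may stand in these values and in the sum, and their part was not tested.

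The members were proposed with results of these samples known, the higher values of Srp54a and Srp54c in knockouts among them. Knockout and wild-type values of the members are therefore described without a test. Srp54c measured 7071, 7683, 7805 and 7114 normalized counts in knockout replicates 1 to 4, against 6669, 6390, 6477 and 6533 in wild-type replicates 1 to 4. Every knockout library was above every wild-type library, and knockout replicates 2 and 3 were the highest. The log2 fold change, here and below knockout over wild type on the log2(normalized count + 1) scale, was 0.19 (SE 0.04). Srp54a measured 2712, 2994, 3047 and 2727 in the knockouts, against 2546, 2457, 2552 and 2479 in wild type. Its groups did not overlap either, the same knockout replicates 2 and 3 were highest, and its log2 fold change was 0.19 (SE 0.05). The sum of both was 9784, 10676, 10852 and 9841 in the knockouts, against 9215, 8847, 9030 and 9011 in wild type. The sum averaged 10288 ± 555 in knockouts and 9026 ± 151 in wild type (SD, n = 4 each), a knockout mean 14.0% above the wild-type mean.

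**Figure D1:**
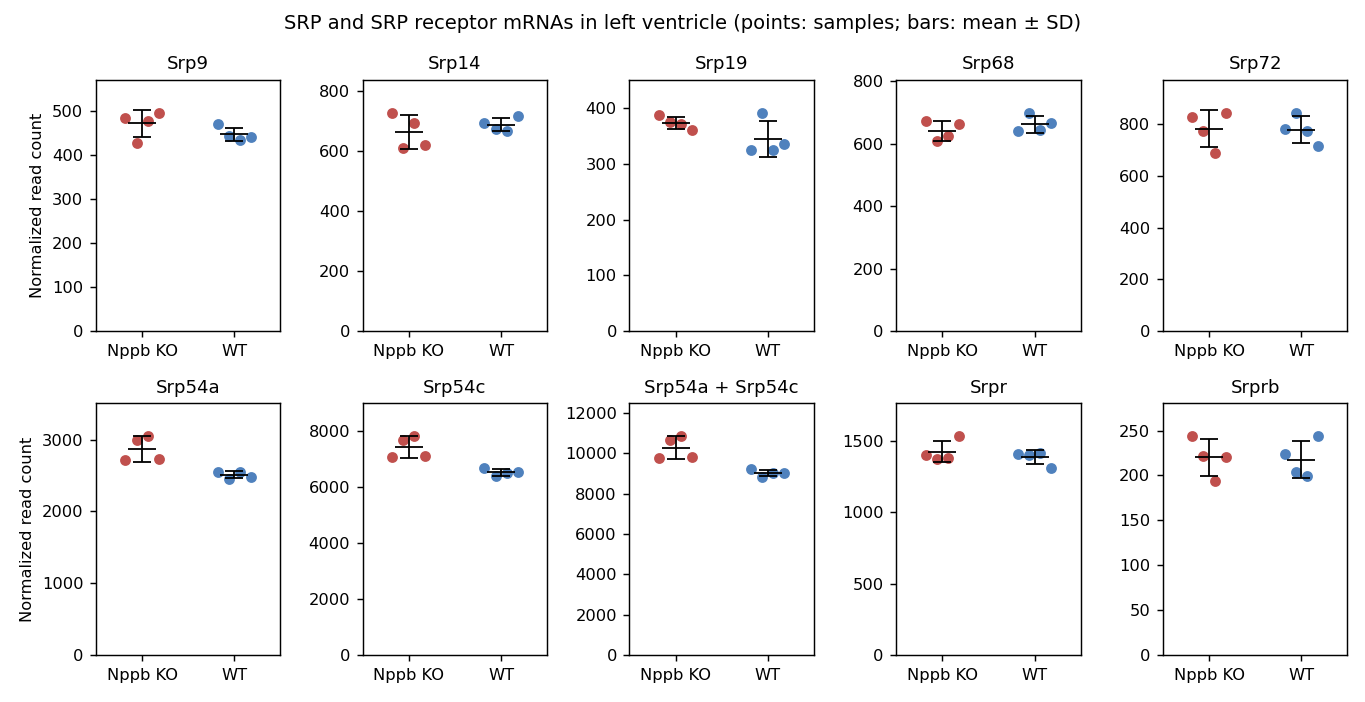
Normalized read counts of the 9 measured SRP and receptor genes and of the sum of Srp54a and Srp54c, with Nppb KO samples left and WT samples right in each panel (points, samples; bars, mean ± SD, n = 4). The Srp54a, Srp54c and summed panels show no overlap, with knockouts at 9784 to 10852 and wild type at 8847 to 9215 for the sum; the other 7 panels overlap.

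All 9 measured members were among the 16590 genes tested, those averaging 10 or more normalized counts. Of the tested genes 2.03% were higher in all knockouts than in all wild types and 1.74% lower, and of the members 2 of 9 were higher, Srp54a and Srp54c, and 0 lower. Since the values of this contrast were known when the members were chosen, nothing is read from that count. The authors' deposited table gives Srp54c a log2 fold change of -0.19 and Srp54a one of -0.19, written as wild type over knockout.

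Srp54c and Srp54a kept nearly the same proportion in every sample. The ratio of Srp54c to Srp54a counts was 2.61, 2.57, 2.56 and 2.61 in knockouts, against 2.62, 2.60, 2.54 and 2.64 in wild type. The means were 2.59 ± 0.03 in knockouts and 2.60 ± 0.04 in wild type (SD, n = 4 each). The part of shared reads in this ratio was not tested.

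The other SRP proteins showed smaller differences, and in all 7 of the remaining genes the genotypes overlapped. Srp19, which binds the RNA and prepares the site for SRP54, lies on chromosome 18. It measured 388, 376, 372 and 362 in knockouts, against 325, 392, 326 and 336 in wild type. Wild-type replicate 2 alone reached above the knockouts, and the log2 fold change was 0.12 (SE 0.07). Srp68 and Srp72 form a pair bound to the middle of the RNA. Srp68, on the reverse strand of chromosome 11 at 116245166 to 116274217, averaged 641 ± 31.3 in knockouts and 662 ± 27.9 in wild type (SD, n = 4 each). Srp72, on the forward strand of chromosome 5 at 76974683 to 76999937, averaged 782 ± 70.03 in knockouts and 778 ± 52.4 in wild type. Its difference was within the spread between samples, with a log2 fold change of 0.01 (SE 0.07). Within each sample the ratio of Srp68 to Srp72 counts was 0.785 to 0.908 in knockouts and 0.820 to 0.932 in wild type.

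Srp9 and Srp14 form the pair at the Alu end of the particle, the part that slows elongation. Srp9, on the forward strand of chromosome 1 at 182124737 to 182132407, measured 485, 429, 478 and 497 in knockouts, against 470, 442, 434 and 442 in wild type. Its log2 fold change was 0.08 (SE 0.06), and knockout replicate 2 lay below every wild type. Srp14, on the reverse strand of chromosome 2 at 118475850 to 118479711, measured 727, 608, 694 and 621 in knockouts, against 693, 673, 665 and 715 in wild type. The knockouts lay on both sides of the wild-type range, with a log2 fold change of -0.05 (SE 0.06). These partners thus had estimates of opposite sign, each of a size close to its SE.

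The receptor genes showed no separation. Srpr encodes the receptor's alpha subunit, a GTPase that pairs with SRP54, on the forward strand of chromosome 9 at 35200175 to 35247973. It measured 1402, 1377, 1385 and 1534 in knockouts, against 1409, 1402, 1420 and 1312 in wild type. Knockout replicate 4 was the highest library and wild-type replicate 4 the lowest, and the log2 fold change was 0.04 (SE 0.05). Srprb, the beta subunit that anchors the receptor in the membrane, lies on the reverse strand of the same chromosome at 103188032 to 103202137. It averaged 220 ± 20.2 in knockouts and 218 ± 20.2 in wild type (SD, n = 4 each). Srprb was the thinnest member, with 150 to 295 whole reads per library, and its within-group coefficient of variation was 9.18% in knockouts and 9.26% in wild type. Srp54c, with 4868 to 9950 whole reads, varied by 5.12% in knockouts and 1.79% in wild type. Part of the 125-base windows of Srprb, 26.0%, also occur in Gm20425, the row at 0. Gm20425 overlaps Srprb on the same strand, at 103190208 to 103230307. How reads fitting both genes were counted was not stated, and their effect on the Srprb values was not tested.

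Over the 9 members the median log2 fold change was 0.04, with 7 above 0 and 2 below. Over all tested genes the median was 0.002, with 50.9% above 0. Without the Srp54 copies the median of the 7 others was 0.02, with 5 above 0 and 2 below. Set against the other SRP proteins within each library, the Srp54 sum was 3.16, 3.82, 3.80 and 3.30 times the summed counts of Srp9, Srp14, Srp19, Srp68 and Srp72 in knockouts. In wild type it was 3.17, 2.90, 3.18 and 3.13 times. Knockout replicates 2 and 3 stood above all others on this measure, whereas knockout replicate 1 lay inside the wild-type range. Relative to Srpr the sum was 6.98, 7.75, 7.84 and 6.41 in knockouts, against 6.54, 6.31, 6.36 and 6.87 in wild type, again with overlap.

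Divided by the length of the longest coding transcript in GENCODE M21, the members spanned a wide range of levels. Srp54c was the highest, at 2037 ± 104 normalized counts per kb in knockouts and 1789 ± 32.1 in wild type (SD, n = 4 each). Srp14 followed at 830 ± 71.8 per kb in knockouts and 860 ± 27.8 in wild type. Srp54a came next at 638 ± 38.9 per kb in knockouts and 558 ± 10.7 in wild type. Srpr was at 476 ± 24.6 per kb in knockouts and 463 ± 16.5 in wild type, and Srp19 at 427 ± 12.4 in knockouts and 394 ± 36.7 in wild type. These neighbours in the order, Srpr and Srp19, were the only pair whose ranges over the 8 libraries met. Srp9, Srp68 and Srp72 averaged 336, 258 and 215 per kb over all libraries. Srprb was the lowest, at 71.8 ± 6.59 per kb in knockouts and 71.0 ± 6.58 in wild type. With the length of all annotated exons in place of the longest transcript, Srp19 and Srp9 moved to ranks 7 and 8 of 9, and Srp54c, Srp14, Srp54a and Srpr kept ranks 1 to 4. Counts of the Srp54 copies may include the same reads more than once, so their rank rests on the authors' counting.

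**Figure D2:**
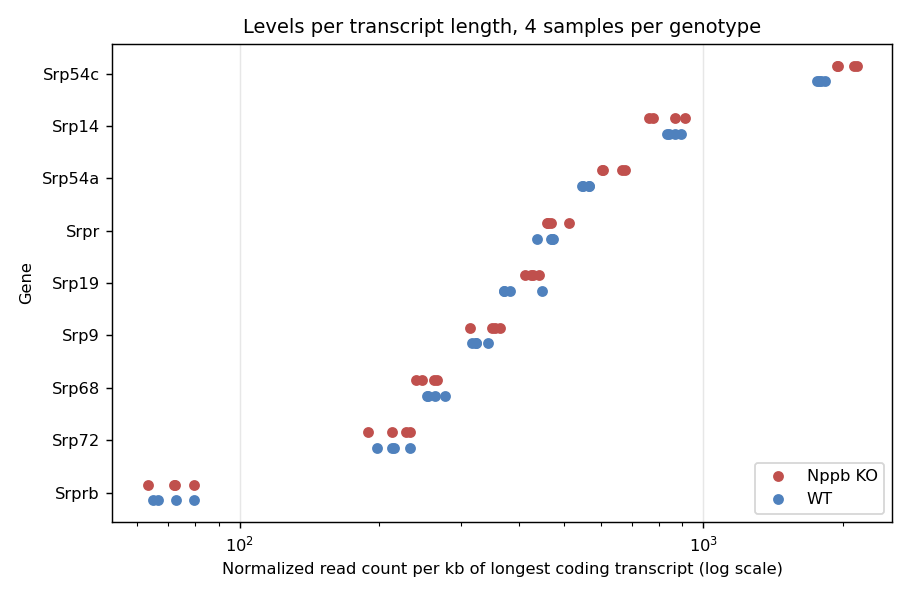
Normalized read count per kb of the longest coding transcript, on a log scale, for the 9 measured members (points, samples; Nppb KO above WT in each row). Srp54c lies at 1755 to 2143 per kb and Srprb at 63.4 to 79.5, with the genotypes overlapping in every row other than Srp54c and Srp54a.

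The genes between and beside the Srp54 copies were examined next. The stretch from the start of Srp54a to the end of Srp54c is 184 kb long and also holds Fam177a and 1700047I17Rik2, another near-identical pair. All 125-base windows of the longest 1700047I17Rik2 transcript occur in Fam177a, and 98.45% of those of Fam177a occur in 1700047I17Rik2. Fam177a, at 55124469 to 55142104, measured 605, 719, 765 and 641 in knockouts, against 601, 592, 555 and 606 in wild type. Knockout replicates 2 and 3 were the highest libraries here too, and knockout replicate 1 lay within the wild-type range. Knockout over wild type came to 0.21 on the log2 scale, with an SE of 0.07 and a limma adjusted p of 0.670. Its near copy 1700047I17Rik2, at 55199592 to 55217168, measured 173, 223, 249 and 195 in knockouts, against 211, 201, 198 and 192 in wild type. Knockout replicate 1 was its lowest library and knockout replicate 3 its highest (log2 fold change 0.05, SE 0.11, adjusted p = 0.959 by limma).

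**Figure D3:**
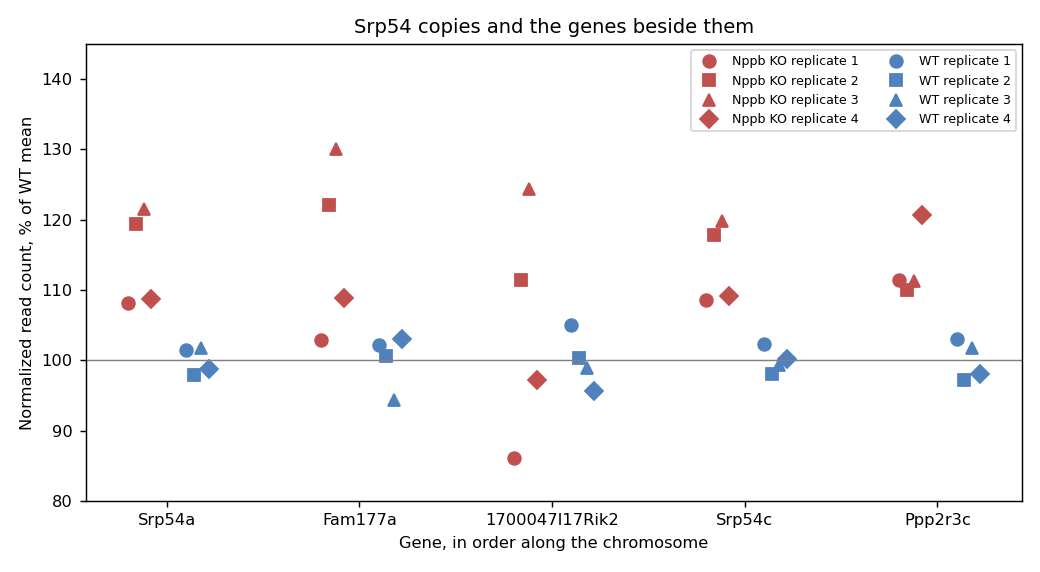
Normalized read count in percent of the wild-type mean for the Srp54 copies and genes beside them, in order along chromosome 12 (red, Nppb KO; blue, WT; symbols, replicate numbers). Knockout replicates 2 and 3 are the highest libraries in Srp54a, Fam177a, 1700047I17Rik2 and Srp54c, at 111% to 130% of the wild-type mean, and not in Ppp2r3c.

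Within 500 kb of the copies 21 other genes were tested by limma, with an adjusted p under 0.05 over all genes as the threshold. None of the 21 passed, 0 higher and 0 lower, beside 0.0121% of all genes, made up of 0.00603% higher and 0.00603% lower in knockouts. That share is only 2 genes, Nppb among them, so 0 of 21 tells little about small differences. At an unadjusted limma p under 0.05 there were 2 of 21, beside 6.26% of all genes. EdgeR also called 0, beside 0.0121% of all genes, and DESeq2 called 0, beside 0.267% of the genes to which it gave an adjusted p. Their median log2 fold change was 0.10, with 17 above 0 and 4 below, beside a median of 0.002 and 50.9% above 0 over all genes. Of the 21, 2 were higher in all knockouts, Snx6, a sorting nexin, and Ppp2r3c, a phosphatase regulatory subunit, beside 2.03% of all genes. Ppp2r3c begins 15.2 kb past the end of Srp54c and measured 418, 413, 418 and 453 in knockouts, against 387, 365, 382 and 368 in wild type (log2 fold change 0.18, SE 0.06, adjusted p = 0.696 by limma). It overlaps 1110008L16Rik, which runs on the opposite strand, and whether the counting used strand was not stated. On the other side, 2700097O09Rik lies directly before Srp54a and runs on the opposite strand. It averaged 200.4 ± 38.0 in knockouts and 199.1 ± 15.9 in wild type (SD, n = 4 each; limma adjusted p = 0.998). The next genes out were Baz1a, a chromatin remodelling factor, at 0.12 (SE 0.07; limma adjusted p = 0.808), and 1110008L16Rik at 0.10 (SE 0.13; limma adjusted p = 0.930). Among the 17 are 5 small nuclear RNA genes with estimates of 0.27 to 0.31 and SEs of 0.17 to 0.19, at 26.7 to 56.2 normalized counts. Of these, Gm22634, Gm25679, Gm26444 and Gm22317 all read 40.6 in knockout replicate 4. Whether the same reads stand in several of these rows was not tested. Fam177a and 1700047I17Rik2 are near-identical as well, so the 17 need not be independent genes.

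**Figure D4:**
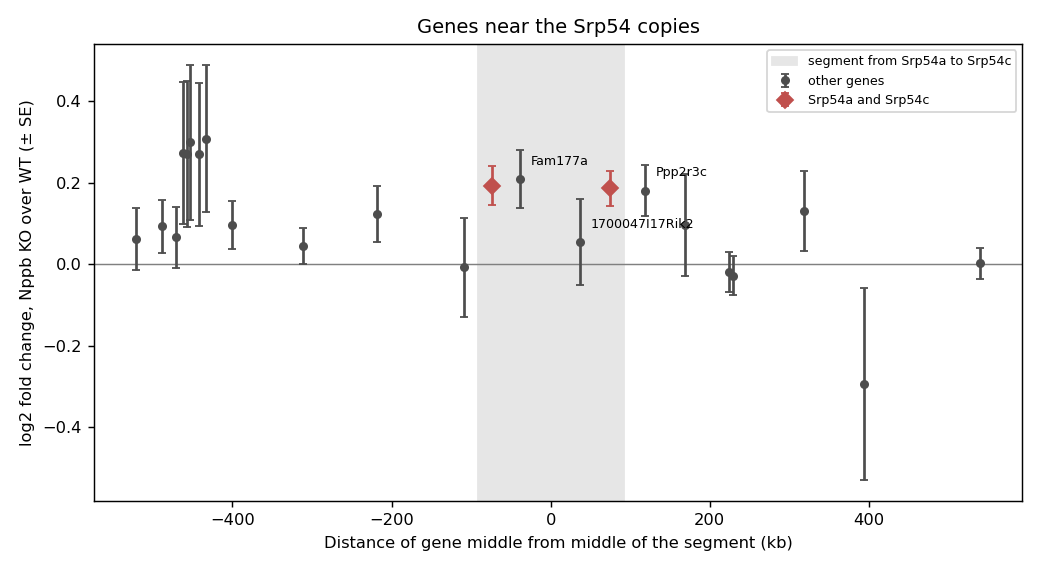
Log2 fold change (Nppb KO over WT, ± SE) of the 21 tested genes within 500 kb of the Srp54 copies and of Srp54a and Srp54c, against distance in kb from the middle of the shaded stretch that runs from Srp54a to Srp54c. Most genes lie above 0, 17 of the 21, and none of the 21 passed the test over all genes. The 17 include small nuclear RNA genes that may share reads, so the points need not be independent.

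The RNA of the particle was examined through the counts of its genes Rn7s1, Rn7s2 and Rn7s6. The whole reads of Rn7s1 and Rn7s2 differed by 22 to 132 in each library, out of 858959 to 1689875 per gene. A random even split of reads would leave a difference with an SD of 1311 to 1838, larger than the differences seen. The same reads may stand in both rows, or the counting may have divided shared reads evenly between them. Which of these holds was not tested. The Srp54 sum may likewise hold reads counted more than once, which was not tested. Fam177a and 1700047I17Rik2, which also share nearly all their windows, did not read alike. Their ratio of counts was 2.80 to 3.51 over all libraries.

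SRP RNA did not separate the genotypes. Rn7s1 averaged 1243360 ± 73953 normalized counts in knockouts and 1228592 ± 77733 in wild type (SD, n = 4 each), with a log2 fold change of 0.02, an SE of 0.06 and a limma adjusted p of 0.981. For Rn7s6 the log2 fold change was 0.05, the SE 0.06 and the limma adjusted p 0.925. Rn7s1 and Rn7s2 together held 9.55%, 9.71%, 10.2% and 8.75% of all gene counts in knockouts, against 9.73%, 9.97%, 8.47% and 9.04% in wild type. The mean share was 9.56% ± 0.60 in knockouts and 9.30% ± 0.68 in wild type (exact two-sided permutation p = 0.629, n = 4 each). If the same reads stand in both rows, this share counts them more than once and is too high as a level, which was not tested. Rn7s1 alone held 4.78% ± 0.30 in knockouts and 4.65% ± 0.34 in wild type (SD, n = 4 each). Knockout replicate 3 had both the highest share of SRP RNA and the highest Srp54 sum, whereas wild-type replicate 2 had the next highest share and the lowest sum.

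Beyond the particle, 48 genes of protein entry to the ER were followed in 6 lists, 47 of them measured and tested; Camlg was not analysed here. By limma 0 of 47 rose and 0 fell, beside 0.0121% of all genes called in either direction, and edgeR and DESeq2 called 0. With so few calls over all genes, 0 of 47 tells little about small differences. At an unadjusted limma p under 0.05 there were 3 of 47, close to the 6.26% of all genes. The median log2 fold change was 0.02, with 28 above 0 and 19 below, beside a median of 0.002 and 50.9% above 0 over all genes. No overlap with higher knockouts was found for 3 of the 47, Stt3b, Rpn1 and Emc2, beside 2.03% of all genes. With lower knockouts it was found for 0, beside 1.74% of all genes.

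The 12 genes of the Sec61 channel and its partners had a median of 0.05, with 7 above 0. Ssr3, a subunit of the translocon-associated protein complex, measured 2818, 2639, 2752 and 2871 in knockouts, against 2548, 2722, 2552 and 2433 in wild type (log2 fold change 0.11, SE 0.05, adjusted p = 0.753 by limma). Sec61b, a small channel subunit, had the largest estimate of all 47, 0.27 (SE 0.14; limma adjusted p = 0.80), at 82.6 to 124 in knockouts and 74.5 to 91.5 in wild type. The 5 signal peptidase genes, which cut the signal sequence off, had a median of 0.02. Spcs1 and Spcs3 of that enzyme had estimates of 0.10 (SE 0.06) and 0.07 (SE 0.05), with limma adjusted p of 0.808 and 0.840.

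Among the 12 oligosaccharyltransferase genes, which attach sugar chains to entering proteins, 10 were above 0 and the median was 0.05. Stt3b, a catalytic subunit, measured 1317, 1319, 1385 and 1320 in knockouts, against 1265, 1286, 1174 and 1199 in wild type. Its groups did not overlap, with a log2 fold change of 0.12, an SE of 0.05 and a limma adjusted p of 0.753. Rpn1, a structural subunit, was likewise higher in all knockouts, at 1162 to 1189 in knockouts against 1041 to 1151 in wild type (log2 fold change 0.10, SE 0.05, adjusted p = 0.796 by limma).

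The remaining lists, of other membrane insertion machinery and of factors that bind nascent chains, were on both sides of 0. The 9 genes of the ER membrane protein complex, an insertase, had a median of 0.03, with Emc7 at 0.13 (SE 0.06; limma adjusted p = 0.769) and Emc9 at -0.17 (SE 0.09; limma adjusted p = 0.808). The 6 tested genes for insertion of tail-anchored proteins had a median of -0.04, with 5 below 0, among them the receptor subunit Wrb at -0.09 (SE 0.09; limma adjusted p = 0.892) and the ATPase Asna1 at -0.05 (SE 0.06; limma adjusted p = 0.922). The 3 nascent chain binding genes, which compete with SRP at the ribosome, were at -0.03 each, Naca at 2541 ± 134 in knockouts and 2590 ± 49.1 in wild type and Btf3 at 1339 ± 18.9 in knockouts and 1364 ± 23.5 in wild type (SD, n = 4 each).

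**Figure D5:**
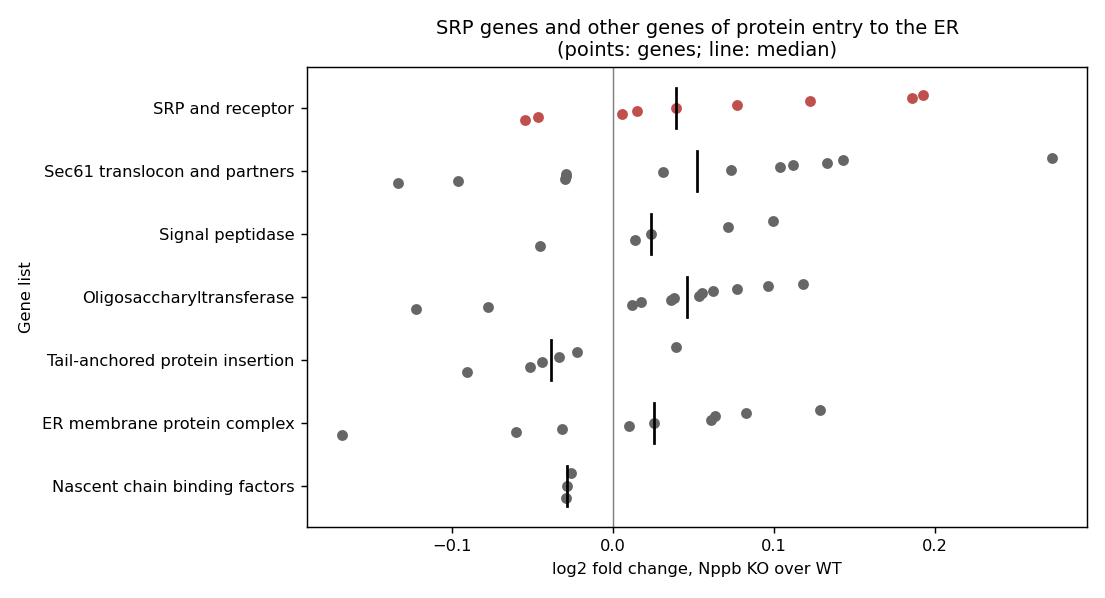
Log2 fold change (Nppb KO over WT) of the 9 measured SRP and receptor genes (red) and of 47 other genes of protein entry to the ER in 6 lists (grey); each point is a gene and each black line the median of its list. The medians lie between -0.04 and 0.05, and the red points farthest right are Srp54a and Srp54c at 0.19.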

How the data were processed

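Total RNA (900 ng per sample) from 8 left ventricle samples went into a stranded library kit and paired-end sequencing, per the labels' protocols. The authors deposited normalized counts per gene, a signal with 1 column per sample, and their own comparison, which holds for each gene the log2 ratio of wild type to knockout, raw and adjusted p-values, and a geometric mean signal per group. STAR, DESeq2 and build mm10 are named in the submitters' processing notes, with no version. The sources used here do not name the read counter, the annotation, or the treatment of strand and of multiply placed reads. Dividing each sample by its smallest non-zero value recovered whole reads (100% of values, tolerance 0.01 reads).

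Of 41128 gene IDs, 40254 were found in GENCODE M21, which has the same build and supplied names, positions, lengths and sequences. The main test was limma 3.58.1 in R 4.3.3 (mean-variance trend, robust moderation) with a pseudocount of 1 on the log2 scale, run on the 16590 genes averaging 10 or more normalized counts, with Benjamini-Hochberg adjustment over all of them and a threshold of 0.05; this scale understates the change of low genes. The Srp54 sum was fitted as an added row. Alternatives were other pseudocounts (0.5 and 5), filters (none, or a mean of at least 50), TMM and quantile normalization, no robust moderation, edgeR 4.0.16 and DESeq2 1.42.0 on the whole reads, the replicate number as a block, and each sample left out. The exact permutation test enumerated all assignments of 4 against 4. Srprb had the fewest whole reads of the members, 150 in the lowest sample. The labels number the samples without stating that each is a separate animal, so p-values measure only the spread between these samples, which may be technical.

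The members and gene lists were chosen with earlier results of these data known. Named genes were Nppb, all members, the 2 genes of smallest p in each pathway list, and the nearest 2 tested protein-coding genes on each side of the Srp54 copies together with those between them. Snx6, Emc2 and the small nuclear RNA genes were named after their values were seen, as was Rn7s6. The sequences of the SRP RNA genes are not reported here.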

Additional observations from a re-analysis of the deposited data

Results flagged for a closer look

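A single outlying sample, judged by its gap to the nearest of the others over the range of its group, was found in 7 of the 80 groups examined; chance gives about 1 in 20. Among the members, Srp19 in wild-type replicate 2 read 392 against 325 to 336 in the other wild types. Srpr in knockout replicate 4 read 1534 against 1377 to 1402 in the other knockouts. Srpr in wild-type replicate 4 read 1312 against 1402 to 1420 in the other wild types. The ratio of the Srp54 sum to the other SRP proteins was 2.90 in wild-type replicate 2, against 3.13 to 3.18. The ratio of Srp68 to Srp72 was 0.932 in wild-type replicate 4, against 0.820 to 0.833. Outside the members, Stt3b in knockout replicate 3 read 1385 against 1317 to 1320, and Ppp2r3c in knockout replicate 4 read 453 against 413 to 418.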

How the results depend on the processing

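The log2 fold change of the Srp54 sum was 0.19 and lay between 0.16 and 0.21 under all 18 alternatives. Srp72 and Srprb changed sign in 4 and 3 of 18, all within the spread between replicates; the other members kept their sign. The count of genes called over all genes was 2, and became 5 with no filter on low values and 22 by DESeq2; leaving out each sample gave 1 to 6, with 6 without wild-type replicate 2, 4 without knockout replicate 4 and 1 without each of the others. Pathway genes outside the members and genes next to the Srp54 copies had 0 calls under all 18. The difference in SRP RNA share, 0.255 percentage points, reversed to -0.0224 without wild-type replicate 3, and leaving out each sample gave -0.0224 to 0.523; the cause was not tested. With Rn7s1 alone or Rn7s6 added, chosen after the data were seen, it was 0.127 and 0.372, and with nuclear genes other than SRP RNA as the denominator 0.362. Same-numbered samples showed no strong shared deviation from their group means, with correlations of -0.069 to 0.026. Whether the samples were paired in some other way cannot be told from these correlations. With the replicate block the count over all genes was 3, and no gene of the pathway lists or next to the copies was called.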
